A study of Mus musculus with 2 samples.

Results

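The replication-dependent histone genes supply the histones that package newly copied DNA. In mouse, RefSeq (GRCm38.p6, equivalent to mm10) annotates 63 protein-coding genes with a symbol of H2ac, H2bc, H3c or H4c and a number, or H1f1 to H1f6, among 21887 protein-coding genes on the assembled chromosomes. They comprise 6 genes for linker histone H1, 17 for H2A, 16 for H2B, 12 for H3 and 12 for H4, with 10 on chromosome 3 and 53 on chromosome 13. The members were selected by symbol alone, with no measured value. Histone genes with other symbols, such as H2aw and H4f16 (older names Hist3h2a and Hist4h4), are outside this rule and are given separately. H4bc24 (older name Hist1h2br, that of an H2B gene) is also outside it and is described only with the peaks of its block.

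Chromatin was taken from bone marrow cells of Mx1 Cre:Usp16loxp/loxp mice that carried the surface proteins c-Kit and Sca-1, which enrich for blood stem and progenitor cells, and was precipitated with anti-Usp16 in 1 library and with IgG in the other. The Mx1 promoter is induced by interferon. Neither the labels nor the file state whether Cre had been induced, so the presence of Usp16 in the cells is not known, and age, sex and number of mice are not stated. Both libraries share this genotype, there are no replicates, and a peak list holds no expression value by which the cell type could be checked.

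Replication-dependent histone genes are short and lack introns, and their messenger RNA ends in a stem-loop in place of a poly(A) tail. They are transcribed mainly while DNA is being copied, from clusters that gather in the nucleus around the coactivator NPAT, and many H2A and H2B genes start back to back from a common promoter region. Usp16 is a protease that removes ubiquitin from histone H2A, a protein that 17 of these genes encode.

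The promoter sequences of genes counted at the highest-scoring histone peaks and of 1 H1 gene without a peak are printed below. Each is the 250 bases upstream of the annotated start, 5′ to 3′ on the gene's own strand, from RefSeq (GRCm38.p6). Capitals mark matches on either strand to motifs known from histone promoters. The letters searched were TATAAA for the TATA box and, for the box bound by NF-Y, CCAAT. The octamer, bound by Pou2f1 and long known from H2B promoters, was searched as ATTTGCAT. The AC box of H1 promoters was searched as AAACACA. Sites for E2F factors, searched as TTTCCCGC or as the related form TTTGGCGC, had no match in these promoters. H2ac6 (chr13:23683960-23684209, minus strand) and H2bc18 (chr3:96269450-96269699, plus strand) lay with all 250 bases inside a peak, while H3c13 (chr3:96268404-96268653, plus strand) and H1f5 (chr13:21780626-21780875, minus strand) had 0 bases inside one.
H2ac6: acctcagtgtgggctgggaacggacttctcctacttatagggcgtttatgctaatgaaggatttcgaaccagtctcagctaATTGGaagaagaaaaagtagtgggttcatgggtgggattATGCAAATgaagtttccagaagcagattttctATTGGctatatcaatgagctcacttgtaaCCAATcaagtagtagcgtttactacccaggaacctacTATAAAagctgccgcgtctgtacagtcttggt
H2bc18: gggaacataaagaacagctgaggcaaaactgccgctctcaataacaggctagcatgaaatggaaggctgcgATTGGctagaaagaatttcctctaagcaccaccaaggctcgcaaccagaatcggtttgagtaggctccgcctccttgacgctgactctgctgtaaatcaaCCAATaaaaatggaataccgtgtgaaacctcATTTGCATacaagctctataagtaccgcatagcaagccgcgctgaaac
H3c13: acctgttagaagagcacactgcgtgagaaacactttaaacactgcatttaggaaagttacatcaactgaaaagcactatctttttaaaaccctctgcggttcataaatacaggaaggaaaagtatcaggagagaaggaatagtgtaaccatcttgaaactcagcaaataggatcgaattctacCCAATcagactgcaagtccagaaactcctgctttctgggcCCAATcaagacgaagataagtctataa
H1f5: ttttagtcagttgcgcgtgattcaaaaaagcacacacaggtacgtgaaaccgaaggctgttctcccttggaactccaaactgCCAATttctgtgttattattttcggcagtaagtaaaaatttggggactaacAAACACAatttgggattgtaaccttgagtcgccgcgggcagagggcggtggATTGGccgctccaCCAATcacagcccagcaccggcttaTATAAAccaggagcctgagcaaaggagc

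The H2ac6 stretch had 5 matches, among them an octamer beginning 130 bases before the start and a TATA box at 32 bases. H2bc18 had 3 matches, with its octamer at 48 bases and CCAAT boxes at 79 and 179 bases. H3c13, counted at the same peak as H2bc18, had only CCAAT boxes, at 67 and 27 bases. H1f5, with no gene-end peak, held an AC box at 117 bases, CCAAT boxes at 168, 66 and 53 bases and a TATA box at 28 bases. Of these 4, the octamer stood only in the 2 stretches inside a peak and the AC box only in H1f5, while the CCAAT box stood in each. The 4 genes differ in histone type as well as in peak. Among all histone promoters no H1 or H3 promoter had the octamer, and 5 of 6 H1 promoters had the AC box. The octamer stood in 8 of 33 counted and 4 of 25 uncounted genes.

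A gene was counted when a deposited peak overlapped, by at least 1 bp, the window from 1 kb before to 1 kb after one of its annotated ends. Of the 63 histone genes, 37 were counted (58.7%, exact 95% Clopper-Pearson interval 45.6 to 71.0%), against 13.9% of all protein-coding genes (3033 of 21887). The interval covers counting error only, and genes that share a peak are not independent. Each peak carries a score, which is the authors' deposited value from the peak caller, has no stated unit and is at least 50 in this list; read depth is unknown. With 1 library per antibody no test between conditions was possible, and all values below describe 1 list. The 37 genes were reached by 23 peaks: 10 peaks reached 1 histone gene each and 13 reached 27 genes between them. No other annotated gene had an end at 22 of the 23 peaks. The exception was the peak at H4c8, which also reached a methionine tRNA gene (n-TMcat9) and the lncRNA gene Gm11335.

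On chromosome 3 all 10 genes were counted, through 5 peaks within 50.3 kb (Clopper-Pearson interval 69.2 to 100%), where 15.9% of the protein-coding genes of chromosome 3 were counted. The count was 9 when the peak had to touch the gene and 4 with peaks at or above the median score of the list. On chromosome 13, 27 of 53 histone genes were counted through 18 peaks (50.9%, interval 36.8 to 64.9%), where the share over the whole chromosome was 15.2%. The 53 genes fall into 4 blocks more than 100 kb apart, a division made after the positions were seen. The block nearest the lower end of the chromosome (chr13:21715711-21833475) had 5 of 17 genes counted, the second (chr13:22035122-22043658) 4 of 5, the third (chr13:23531044-23764412) 18 of 29 and the last (chr13:23933725-23934913) 0 of 2.

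**Figure D1:**
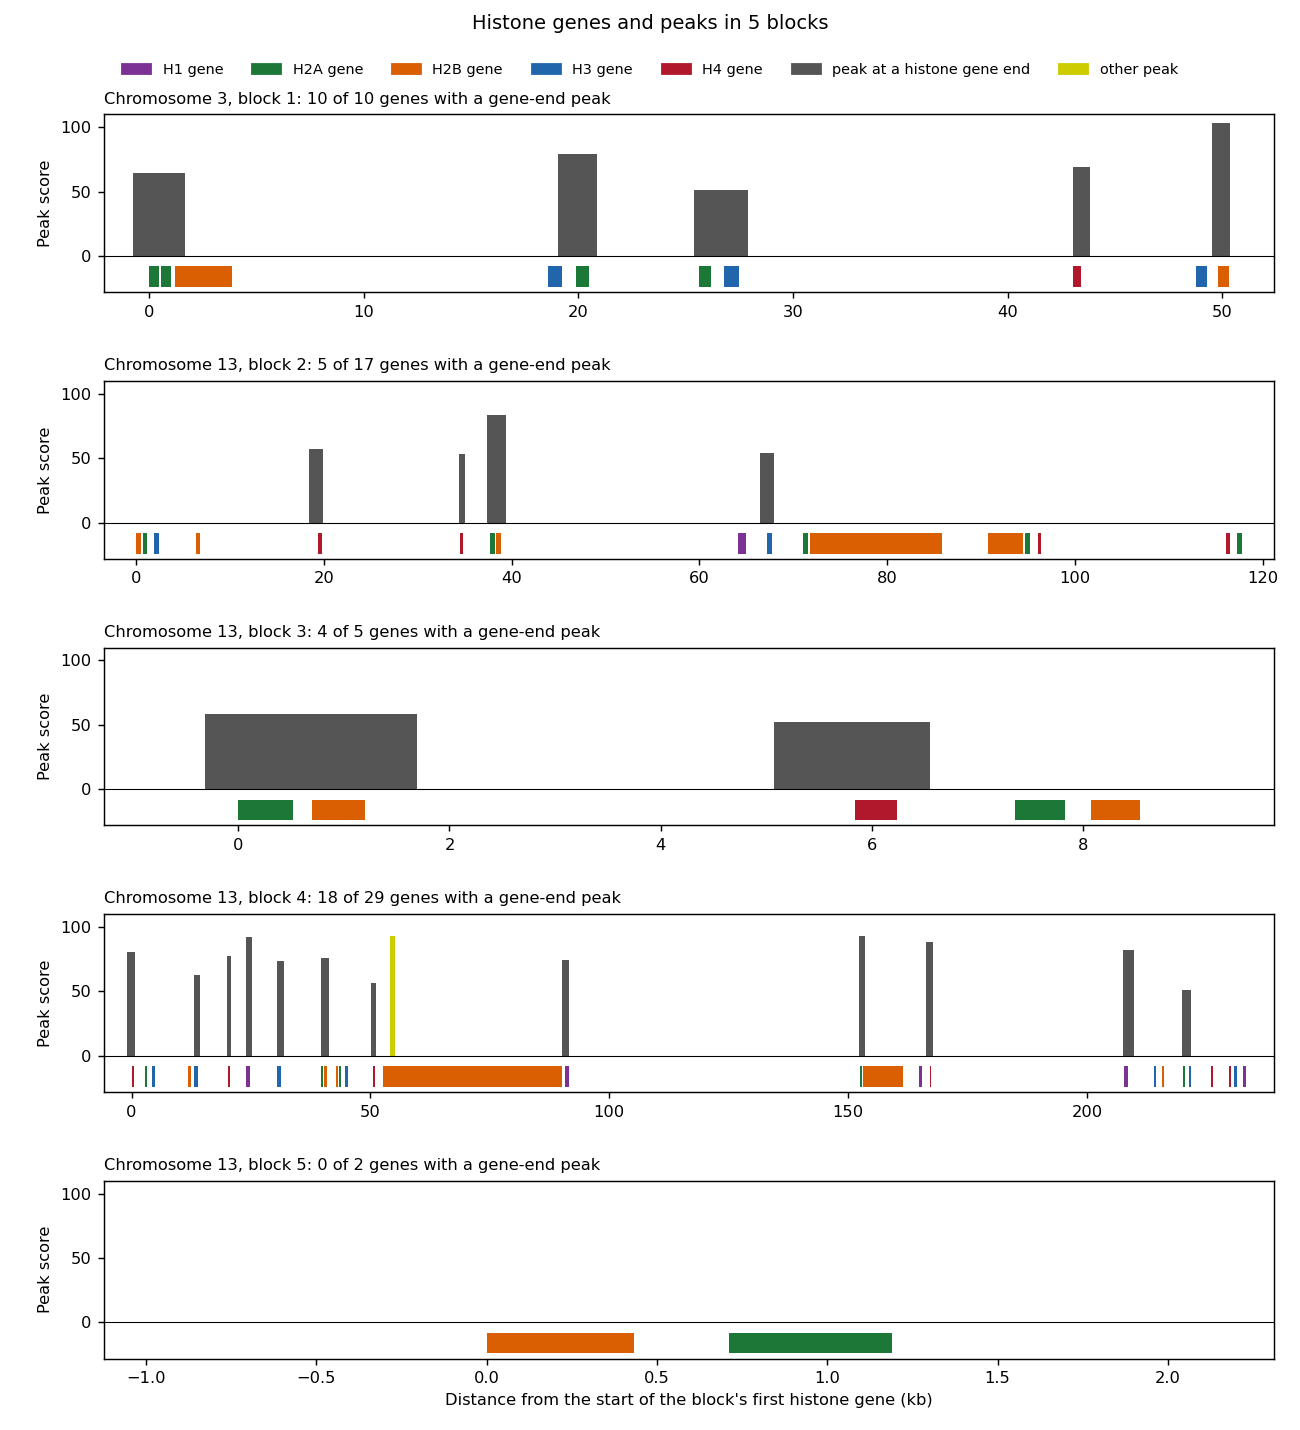
Map of the chromosome 3 cluster (block 1) and the 4 chromosome 13 blocks (2 to 5, in genome order). The x axis is the distance in kb from the first histone gene of the block, coloured boxes are genes to scale, and bars are peaks drawn to their width with the deposited score as height. All 10 genes of block 1 lie at peaks, whereas the last 7 genes of block 2 and both genes of block 5 have none.

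On chromosome 3 the first peak (score 64.7, 2412 bp wide) reached H2ac21, H2ac20 and H2bc21 and was the only one to reach 3 histone genes. The second (score 79.0) lay at H3c15 and H2ac19, the third (score 51.2) at H2ac18 and H3c14, and the fourth (score 69.3) at H4c14 alone. The highest score of all 23 was that of the fifth, chr3:96269405-96270246, with 103 and a width of 842 bp. This peak covered H2bc18 whole and did not touch H3c13, whose end lay 250 bp from its edge.

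In the first chromosome 13 block, peaks lay at H4c11 (score 57.3), H4c12 (53.5), the pair H2ac15 and H2bc15 (83.6) and H3c11 (54.05). The 12 genes without one stood in 3 runs. H2bc13, H2ac13, H3c10 and H2bc14 opened the block, H1f5 lay between peaks, and H2ac22, H2bc22, H2bc23, H2ac23, H4c17, H4c18 and H2ac24 closed it over 46.7 kb. The second block had peaks at the pair H2ac12 and H2bc12 (score 58.6) and at H4c9 (52.5), which also reached H2ac11, and H2bc11 had none.

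The third block, which holds 5 of the 6 H1 genes, carried 12 of the 18 counted chromosome 13 peaks. Their median score was 76.6, against 55.7 for the 4 peaks of the first block. The highest score of these 12 was 92.7 at chr13:23683365-23684563 (1199 bp), over H2ac6 and the end of H2bc4. It was followed by 92.5 at H1f3 (chr13:23554965-23556357, 1393 bp) and 88.2 at H4c3 (chr13:23697395-23698764, 1370 bp). The remaining 9 peaks lay at H1f2 (82.1), H4c8 (80.4), H4c6 (77.4), H2ac8 with H2bc8 (75.8), H1f4 with H2bc6 (74.4), H3c6 (73.4), H3c7 with H2bc9 (63.1), H4c4 (56.45) and H2ac4 with H3c2 (51.4). The 11 genes without a peak were H2ac10, H3c8, H2bc7, H2ac7, H3c4, H3c3, H2bc3, H4c2, H4c1, H3c1 and H1f1, the last 4 of which close the block. H2bc1 and H2ac1, the testis-specific H2B and H2A genes, formed the last block, and the peak nearest to H2bc1 was 180906 bp away.

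A further peak in the third block was not counted for any gene. It lay inside the annotated H2bc6 gene, which RefSeq draws over 37455 bp, at chr13:23585242-23586210, 1.572 kb from the lower end and 34.9 kb from the upper end. Its score of 93.2 exceeded that of each of the 18 counted chromosome 13 peaks. H2bc6 was counted through the H1f4 peak, which began at the base next to its upper end and did not overlap it. The promoter table lists 2 starts for H2bc6, neither inside the H1f4 peak. Whether the peak inside the gene lies at one of these starts was not examined.

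All 5 histone types had counted genes. The shares were 4 of 6 for H1 (66.7%), 10 of 17 for H2A (58.8%), 8 of 16 for H2B, 7 of 12 for H3 (58.3%) and 8 of 12 for H4 (66.7%). Each lay above the 13.9% of all protein-coding genes, and the exact 95% intervals of the types overlapped (24.7 to 75.3% for H2B, 34.9 to 90.1% for H4). Among H1 genes, H1f2, H1f3 and H1f4 lay entirely inside peaks, and H1f1 and H1f5 had none. The testis H1 gene H1f6 was counted only because the edge of the H4c3 peak lay 850 bp from it. On chromosome 13 alone the shares were 6 of 13 for H2A, 6 of 14 for H2B, 4 of 9 for H3 and 7 of 11 for H4.

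**Figure D2:**
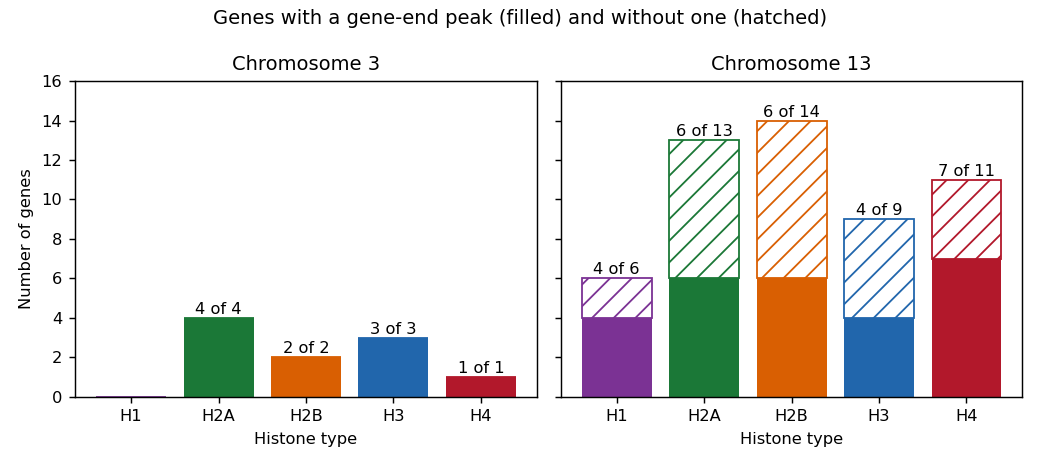
Number of histone genes by type (x axis) on chromosome 3 (left) and chromosome 13 (right). Filled bars count genes with a gene-end peak and hatched bars those without; all 10 genes on chromosome 3 are filled, and on chromosome 13 each type has both kinds.

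The scores overlapped between types, and a peak shared by 2 types counts for both. The 4 peaks at H1 genes scored 74.4 to 92.5 with a median of 85.1. The median was 75.1 for the 8 peaks at H2B genes, 64.7 for the 9 at H2A, 63.3 for the 8 at H4 and 63.1 for the 7 at H3. The score of 103 counts for H3 only through H3c13, which that peak did not touch, and the peaks that touched an H3 gene scored 51.2 to 79.0. Likewise 88.2 counts for H1 only through H1f6, and the peaks that touched an H1 gene scored 74.4, 82.1 and 92.5. The score of 52.5 counts for H2A only through H2ac11, and 63.1 and 74.4 for H2B only through H2bc9 and H2bc6.

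The peaks at histone genes were wide but of ordinary score. Their median width was 1478 bp (quartiles 1189.5 and 1900.0, range 654 to 2517), against 788.5 bp for the 2466 peaks at ends of all protein-coding genes. Of the 23, 19 were at least 1000 bp wide (82.6%), against 26.1% of all protein-coding gene-end peaks. Peaks at 1 gene were wide as well: the 10 peaks at a single histone gene had a median of 1408.5 bp, the 12 at 2 genes 1690 bp, and 601 other peaks at ends of 2 or more protein-coding genes 862 bp. The median score was 73.4 (quartiles 56.9 and 81.2), beside 74.4 for all protein-coding gene-end peaks (quartiles 59.9 and 106). None of the 23 reached 153, the lower bound of the top decile of protein-coding gene-end peaks.

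**Figure D3:**
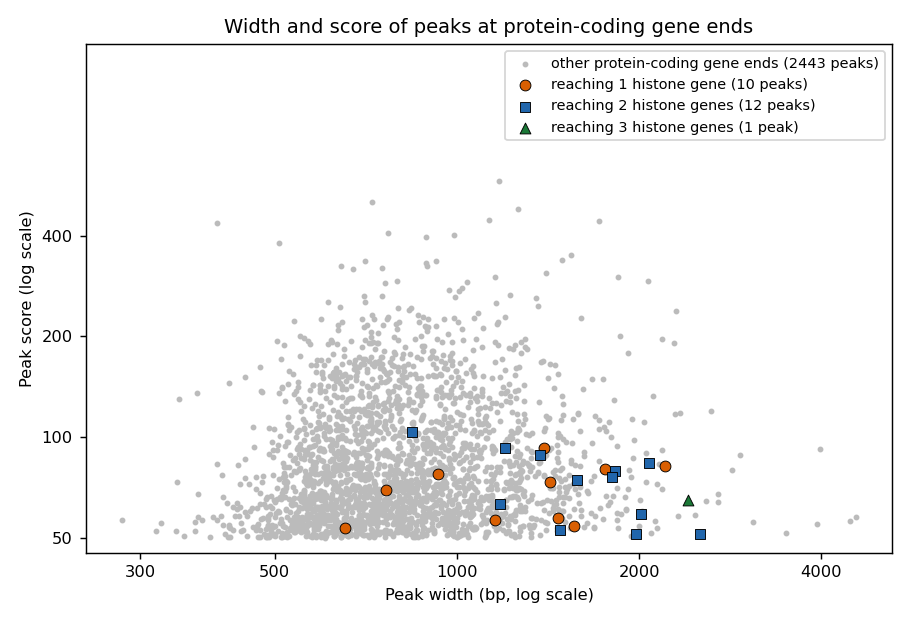
Score (y axis, log scale) against width in bp (x axis, log scale) for peaks at protein-coding gene ends; grey points are 2443 peaks at other genes and large symbols the 23 peaks at histone genes by the number of histone genes reached. Of the histone peaks, 19 lie at or beyond 1000 bp and none exceeds a score of 103.28.

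The promoter table gives a strand and a start for 58 of the 63 genes (not for H2bc21, H4c14, H3c7, H2bc4 and H3c1), and for 33 of the 37 counted ones. In 28 of these 33 the start lay inside the peak (84.8%), and in 26 the opposite end lay in it too. Among all 2529 counted protein-coding genes with an entry, 80.1% had their start in the peak, 3.76% their opposite end and 1.19% both. This reference includes the histone genes, which make up 26 of its 30 genes with both ends in the peak. The histone genes are short, with a median length of 492 bp against 17169 bp, and 26 of the 37 counted genes lay entirely inside their peak. A further 6 lay inside in part: H2bc4 (4.41% of its length), H2bc21 (17.7%), H3c15 (28.5%), H3c7 (84.1%), H4c14 (94.5%) and H3c2 (95.8%).

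The 5 genes with no start inside the counted peak were reached by the peak of a neighbour. The peak edge was 752 bp from H2bc9, 803 bp from H2ac11, 850 bp from H1f6 and 250 bp from H3c13, and it adjoined H2bc6. Beyond the 1 kb window, the nearest peaks lay 1328 bp from H2bc7, 1516 bp from H1f5, 1523 bp from H2bc11 and 1949 bp from H2ac7. The 26 uncounted genes had their nearest peak at a median of 4677.5 bp.

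Where the start was inside, the peak midpoint lay at a median of 128 bp downstream of it (quartiles -110.25 and 487.25 bp, downstream in 18 of 28). For the 1998 other protein-coding genes with their start in a peak, the median was -53.25 bp, upstream of the start in 1303. Where such a gene had several listed starts, the one nearest the midpoint was used, whereas the 28 histone genes had 1 start each. The midpoint lay 629 bp past the start of H1f3, 645.5 bp past that of H1f4 and 881.5 bp past that of H1f2. Peaks shared by 2 genes have 1 midpoint for both, and those of H2ac15, H2ac12 and H2ac8 lay at -165.0, -166.5 and -310.5 bp from the H2A start, towards the H2B partner.

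**Figure D4:**
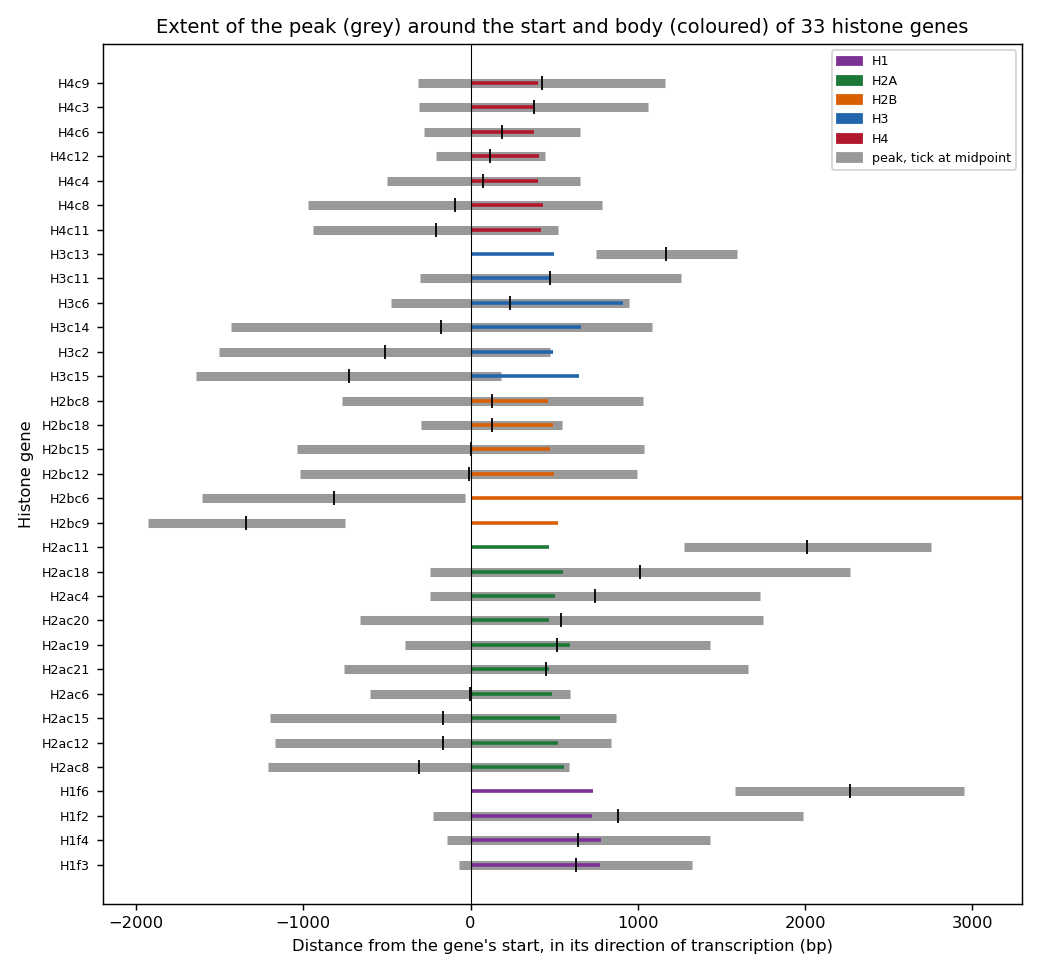
Extent of the peak (grey bar, tick at its midpoint) around the annotated start (0 on the x axis, in bp along the direction of transcription) for the 33 counted histone genes with a start in the promoter table; coloured lines are gene bodies, by type, with H2bc6 running beyond the axis. H2bc6 is drawn from the first of its 2 listed starts. In 28 genes the bar crosses 0, and in H3c13, H2bc6, H2bc9, H2ac11 and H1f6 it does not.

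Within blocks there were 57 pairs of neighbouring histone genes, and 14 of them shared a peak (24.6%), against 2.82% of all consecutive protein-coding pairs. Of the 23 pairs no more than 1000 bp apart, 12 shared a peak (52.2%), against 14.3% of the 3967 protein-coding pairs that close. In 12 of the close pairs both genes were counted by 1 common peak, in 10 neither was, and in 1 (H2ac11 and H2bc11) only 1 was. The 1 kb window favours this, since a peak at one gene of a close pair is often within reach of the other: when the peak had to touch both genes, 9 of the 57 pairs shared one. Of the 34 pairs farther apart only 2 shared a peak, H4c9 with H2ac11 (1115 bp) and H1f6 with H4c3 (1538 bp), and in 14 each gene had its own.

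**Figure D5:**
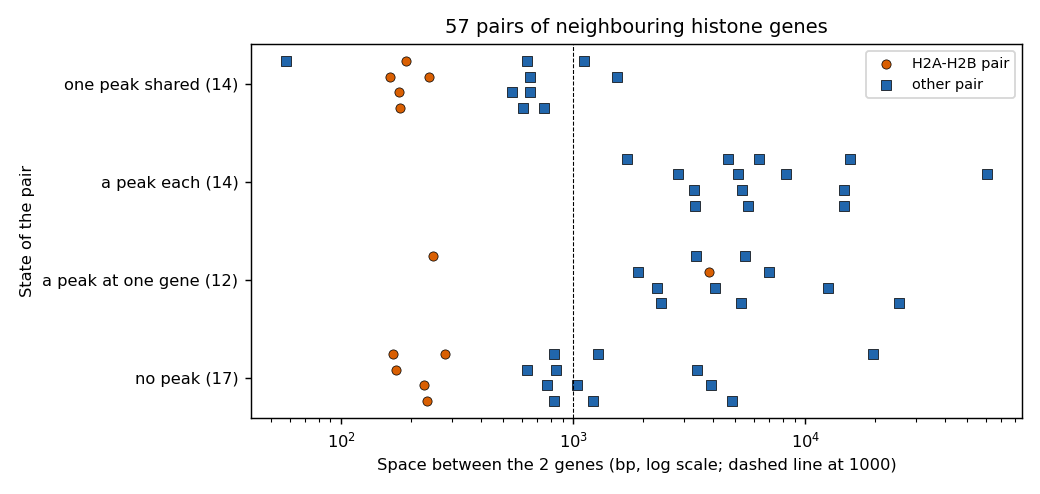
Space between the genes of each of 57 neighbouring histone pairs (x axis, bp, log scale) by the state of the pair (rows, with the number of pairs); circles are H2A-H2B pairs and squares all others. The pairs that share a peak lie at 58 to 1538 bp, and no pair under 1000 bp has a peak each.

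Of 11 H2A-H2B pairs within 1000 bp, 5 shared a peak, 5 had none and in 1 only the H2A gene was counted. That gene was H2ac11, which the H4c9 peak did not touch and whose edge lay 803 bp from it. The other shared close pairs were 3 of H2A and H3 (H3c15 with H2ac19, H2ac18 with H3c14, H2ac4 with H3c2), 2 of H2B and H3, 1 of H1 and H2B and 1 of 2 H2A genes, H2ac21 and H2ac20, whose ends are 58 bp apart. The space between the genes lay wholly inside the peak for each of the 5 shared H2A-H2B pairs. It was outside the peak for H2bc9 and H3c7, although both genes were counted.

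For 9 close H2A-H2B pairs both starts are annotated and face away from each other. Their common upstream space is printed for the 3 that shared a peak and for H2bc7-H2ac7, the neighbour of H2ac8-H2bc8 that had none, read on the strand of the H2B gene, with the same motifs in capitals. The spaces are chr13:21753913-21754075 (plus strand, 163 bases), chr13:22035644-22035820 (plus strand, 177 bases), chr13:23571221-23571399 (plus strand, 179 bases) and chr13:23574208-23574380 (minus strand, 173 bases).
H2ac15-H2bc15: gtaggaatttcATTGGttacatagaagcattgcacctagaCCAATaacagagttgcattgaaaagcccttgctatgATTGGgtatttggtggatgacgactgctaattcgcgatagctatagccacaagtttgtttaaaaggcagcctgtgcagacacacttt
H2ac12-H2bc12: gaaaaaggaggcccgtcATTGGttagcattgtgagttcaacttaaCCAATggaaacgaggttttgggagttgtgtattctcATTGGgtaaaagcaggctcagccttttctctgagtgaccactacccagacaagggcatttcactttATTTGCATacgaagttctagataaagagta
H2ac8-H2bc8: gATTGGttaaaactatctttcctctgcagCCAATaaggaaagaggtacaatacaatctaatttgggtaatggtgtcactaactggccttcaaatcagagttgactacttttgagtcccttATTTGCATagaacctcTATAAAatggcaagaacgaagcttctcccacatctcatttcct
H2bc7-H2ac7: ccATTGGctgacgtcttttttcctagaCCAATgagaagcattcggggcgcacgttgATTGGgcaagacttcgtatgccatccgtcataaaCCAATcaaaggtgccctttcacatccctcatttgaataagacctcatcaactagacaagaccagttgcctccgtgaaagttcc

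Each of the 9 spaces held CCAAT boxes, 2 to 5 of them. The octamer stood in 2 of the 3 spaces with a shared peak (H2ac12-H2bc12, H2ac8-H2bc8) and in 1 of the 6 without (H2bc1-H2ac1). The 3 spaces with a shared peak had 1 to 3 CpG dinucleotides and the 6 others 7 to 14. This difference was noticed after the sequences were read. The counts were not scaled to length, which was 163 to 179 bases for the 3 and 167 to 280 for the 6. The 2 other shared close pairs, H2ac20-H2bc21 and H2ac6-H2bc4, have no listed H2B start and are not among the 9. The 250 bases upstream of H2ac20 and of H2ac6, which span these 2 spaces, held 7 and 6 CpG. Over 250 upstream bases, 33 counted genes had a median of 9 CpG and 25 uncounted ones 10.

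The upstream sequences of the family differed from those of other genes whether or not a peak was listed. Of 58 histone promoters, 82.8% had a CCAAT box, 48.3% a TATA box, 20.7% the octamer and 15.5% an AC box within 250 bases, against 36.3%, 12.4%, 1.61% and 5.44% of 17492 protein-coding promoters of the same length. An E2F match stood in 1.72% of histone promoters (H4c1 alone) and 1.74% of all. Among the 2529 counted protein-coding genes the shares were 36.1% for the CCAAT box, 6.37% for the TATA box, 1.62% for the octamer, 4.07% for the AC box and 2.97% for E2F. The CCAAT box stood in 26 of 33 counted and 22 of 25 uncounted genes, the TATA box in 16 and 12, the octamer in 8 and 4 and the AC box in 5 and 4. The motifs were spread unevenly over the types, which was not tested. The octamer was found in 6 of 14 H2B and 6 of 17 H2A promoters and in no H1, H3 or H4 promoter, and the AC box in 5 of 6 H1, 2 H2A and 2 H2B promoters. The CCAAT box was found in all H1, H2A and H2B promoters, in 8 of 10 H3 and in 3 of 11 H4 promoters. The TATA box was found in every type, in 4 of 6 H1, 7 of 17 H2A, 7 of 14 H2B, 4 of 10 H3 and 6 of 11 H4 promoters. A match is a run of letters, not a shown binding site. The motif shares were not adjusted for base composition. Median GC was 44.8% in the 58 histone promoters, 55.2% in all protein-coding promoters and 59.2% in the counted ones. The counted histone promoters were poorer in CpG than the 2529 counted protein-coding promoters, whose median was 16. Over all 17492 protein-coding promoters the median was 10, beside 9.5 for the 58 histone promoters.

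Some histone promoters repeat one another in part or in full. Each promoter, from 250 bases upstream to 50 downstream of the start, holds 265 stretches of 36 bases, and 9 of 58 histone genes had over 50% of them repeated exactly in the promoter of another gene. Of these, 4 lie on chromosome 3, where H2ac18 and H2ac19 shared 69.4% and H3c14 and H3c15 80.8%, and all 4 were counted. The other 5 lie in the run of 7 uncounted genes of the first chromosome 13 block: H2bc23 (100%), H4c17 and H4c18 (94.3% each), H2ac23 (89.4%) and H2ac24 (74.7%). H2ac22 and H2bc22, also in this run, had 0% repeated, as did 19 of the 25 uncounted genes with an entry. Sequence more than 50 bases downstream of the start was not compared, so 0% does not show that a gene is unique. How reads with several matches were treated is not known here, and the part of repeated sequence in these calls was not tested.

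Peaks within the blocks were almost all at histone genes. Of 5, 4, 2 and 13 peaks in the spans of the first 4 blocks of the map, all but the one inside H2bc6 lay at histone gene ends. The density was 95.6 peaks per Mb in the chromosome 3 cluster, against 1.70 over the chromosome. It was 33.4, 190, 55.2 and 0 per Mb in the 4 chromosome 13 blocks, against 1.92. The value of 190 rests on 2 peaks in 10.5 kb. The spans were drawn around closely packed genes, 10 in 52.3 kb on chromosome 3, so a density per Mb is not a rate per gene. The only other protein-coding genes in the spans, H4bc24 and Hfe, had none. H4bc24 adjoins H2ac24, and its older name, Hist1h2br, is that of an H2B gene. It is counted neither among the 63 histone genes nor among the 21 outside the rule. Its promoter held all 265 stretches of the H2bc23 promoter. Between the chromosome 13 blocks lie 50 other protein-coding genes, none of which was counted, and 77 tRNA genes. The 12 peaks there all lay at tRNA gene ends.

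Genes that make and handle histone RNA were also counted more often than the background of 13.9%, at 9 of 28 (32.1%, median peak score 88.1). The list was chosen with earlier results of these data known, and the difference was not tested. The highest scores were at Slbp (161), which binds the histone stem-loop, Ncbp2 (120), a subunit of the cap-binding complex, Srrt (107), which works with that complex, and Cpsf2 (102), a subunit of the cleavage machinery. The peaks of Slbp, Ncbp2 and Cpsf2 also reached Tmem129, 0610012G03Rik and Ndufb1. Casp8ap2, which acts in histone RNA processing, and Coil, the coilin gene, had none. Npat, the gene of the coactivator of the clusters, had no peak. Pou2f1, the octamer-binding factor, had a peak of score 70.0 and Hinfp, a factor at H4 promoters, one of 88.1, and these 3 were named after their values were seen.

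Among histone chaperones and assembly factors 8 of 25 genes were counted (32.0%). The highest scores were at Daxx, an H3.3 chaperone (185, at a peak shared with Zbtb22 that did not touch Daxx itself), Ssrp1 (168, shared with P2rx3), a subunit of the FACT complex, Tonsl (92.1, shared with Vps28) and Spty2d1 (83.7), and Anp32e and Asf1a had none. Among 21 histone genes outside the rule 4 were counted (19.0%). H4f16 scored 111 (1263 bp), H2ax, the H2A variant of DNA damage signalling, 66.4 (1766 bp), H2aw 58.5 (shared with Trim17) and H3f3b, an H3.3 gene, 57.8. Cenpa and H1f0 had none. These lists, too, were chosen with earlier results known and were compared by their counts alone.

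Other ways of counting kept the histone share above its background. With peaks at or above the list's median score of 70.1, 19 histone genes were counted, against 7.99% of protein-coding genes. The count was 34 with a window of 500 bp (13% of protein-coding genes), with overlap of at least 50% of the peak (13.1%) and with the peak midpoint in the window (13.1%). It was 50 with a window of 5 kb (18.3%), 37 with peaks under 1 kb apart merged (13.9%) and 33 when the peak had to touch the gene itself (16.7%).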

How the data were processed

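The deposited file is 1 list of 5079 peaks for the anti-Usp16 library. The authors called them with MACS in Galaxy, per the file headers. Bowtie, Picard and the build mm10 were used, per the submitters' processing notes. The score is the peak caller's value as the authors deposited it. It was used only within this list, and its smallest value was 50, so a gene without a listed peak is not shown to lack binding. The MACS version and settings, the depth and any use of IgG as control: not given in the sources used here. IgG signal was not analysed here.

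Peak starts were made 1-based and 5046 peaks on assembled chromosomes were used. Genes, strands, starts and promoters came from RefSeq GRCm38.p6 tables, the same assembly, and protein sequences were not used here. Counting was tested on simulated peaks placed at known distances. The analysis used Python 3.11.15, pandas 2.3.3 and scipy 1.17.1. Members, lists and tests were chosen with earlier results of these data known. Named are all members with their peaks, and in the other lists up to 4 genes with the highest scores and 2 without a peak in alphabetical order. Alternatives were the score, window, overlap and merging rules, promoters of counted genes as the reference for motifs, and 1 added after seeing the data, a peak touching the gene. Division into blocks, repeated stretches and the spaces between pairs were also chosen after seeing the data. Which other genes lie at the H2ax peak is not reported here.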

Additional observations from a re-analysis of the deposited data

How the results depend on the processing

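Of 102 recomputed counts and medians, 88 stayed within 1.5 times the reported count or within the exact interval of the median. With peaks at or above the median score, the counts fell to 19 genes (4 on chromosome 3, 15 on chromosome 13), to 4 H2A, 5 H2B, 3 H3 and 3 H4 genes, to 12 peaks and 7 shared pairs, and to 5 chaperone genes and 1 histone gene outside the rule. This setting removes the lower-scoring peaks of the list. With a window of 5 kb, 13 H2B genes and 34 pairs were counted, since a wide window spans several genes. When the peak had to touch the gene, a rule added after seeing the data, 9 pairs shared one. The 34 genes counted under each of the 500 bp, 50% overlap and midpoint rules were all among the 37, without H1f6, H2ac11 and H2bc9. Against promoters of counted protein-coding genes in place of all, the reference shares moved beyond their exact intervals for the TATA box (6.37%), the AC box (4.07%) and E2F (2.97%). No paired analysis was possible because each antibody has 1 library. Depth is unknown, so weak and absent peaks cannot be told apart.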

Other observations

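H3f3b, a gene for the replacement histone H3.3, had a peak of 4557 bp (chr11:116018025-116022581), the widest of the 2466 peaks at ends of protein-coding genes, at a score of 57.8. It lay at the end opposite to the annotated start, and the start was outside it.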
